A study of Mus musculus with 106 samples.

Results

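The brain of mice kept at 34 °C was compared with the brain of mice kept at room temperature, 22 °C, by RNA sequencing of the whole tissue. The comparison took every library of brain from the warm experiment, 3 from mice at 34 °C (warm 1 to warm 3) and 3 from mice at 22 °C (RT 1 to RT 3), which are 6 of the 106 libraries of a series that covers 11 mouse tissues in the cold, at room temperature and in the warm. All mice were wild type males of the strain C57BL/6J that carried no transgene, deletion or drug treatment, and they were 12 weeks old when tissue was taken. The warm mice had spent the last 4 weeks at 34 °C, a temperature above the range in which a mouse needs extra heat production to keep warm, and the RT mice had spent the same time at 22 °C, where a mouse is mildly cold. Each library was made from the pooled tissue of a pair of mice, so the replicates are pools and p-values measure the spread between pools. The libraries held 48996910 to 62880248 counts in genes, and a count of 0 therefore allows up to 0.0477 to 0.0612 CPM (counts of a gene scaled to a common library size), a limit that covers counting error only. Of 23393 genes in the count table, 13978 had an average above 1 CPM and were tested.

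By its labels the tissue was the whole brain from which the hypothalamus had been removed. Measured against that label, 6 of 12 hypothalamic peptide genes were below 1 CPM in all 6 libraries. Among these were Hcrt (hypocretin) at 0.019 to 0.331 CPM, Oxt (oxytocin) at 0.0947 to 0.872 CPM and Agrp (agouti-related peptide) at 0 to 0.114 CPM. Another 4 of the 12 averaged above 1 CPM and were tested. The 12 peptide genes summed to 18.2 to 25.6 CPM, whereas the 12 markers of neurons of cortex and hippocampus summed to 5004 to 5683 CPM. Pairwise correlations of log2 CPM between the 6 libraries were 0.991 to 0.996, and no pair of libraries agreed within sampling noise. The first principal component held 36.6% of the variance and did not separate the temperatures, since its order from lowest to highest was RT 2, warm 1, warm 2, RT 1, warm 3 and RT 3. In a library of whole tissue, fewer cells of a type and less RNA per cell cannot be told apart.

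Neurons that fire switch on immediate early genes within minutes, without the need for new protein. Some of these genes encode transcription factors (Fos, Egr1, Egr2, Nr4a1), and others act at the synapse (Arc) or brake the MAP kinase signal that induced them (Dusp1, Dusp6). The brain makes its own cholesterol, mostly in glia, because cholesterol of the blood does not cross the blood-brain barrier, and the transcription factor SREBP2 drives the enzymes of that synthesis. Both sets of genes are described below, followed by genes of the clock, of heat and cold stress and of hormones, and by markers of brain regions and cell types.

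Few genes were called between 34 °C and 22 °C in brain, and most of those called were lower at 34 °C. A gene was called where edgeR's quasi-likelihood test gave an unadjusted p of at most 0.05 and the fold change was above 1.5. On that rule 27 genes were called, 0.193% of those tested, of which 6 rose (0.0429%) and 21 fell (0.15%) at 34 °C. An unadjusted p of at most 0.05 with any fold was reached by 369 genes (2.64%), 170 of them higher (1.22%) and 199 lower (1.42%) at 34 °C. That share is smaller than the limit of 0.05 alone would give if no gene differed. No gene passed an adjusted p under 0.05 in edgeR's quasi-likelihood test (Benjamini-Hochberg), in edgeR's exact test or in DESeq2, and the smallest adjusted p of the first was 0.9997. Of the 27 called genes, 22 had a mean under 10 CPM in both groups. In 11 the libraries of the groups did not overlap, 9 of them lower and 2 higher at 34 °C. Every warm library was below every RT library in 3.73% of all tested genes, and above in 2.88%. The 27 were chosen on this same comparison, which favours a lack of overlap, so nothing is read from the 11. The call rule is thus loose for 13978 tests, and every gene named below is to be read with that in mind.

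**Figure D1:**
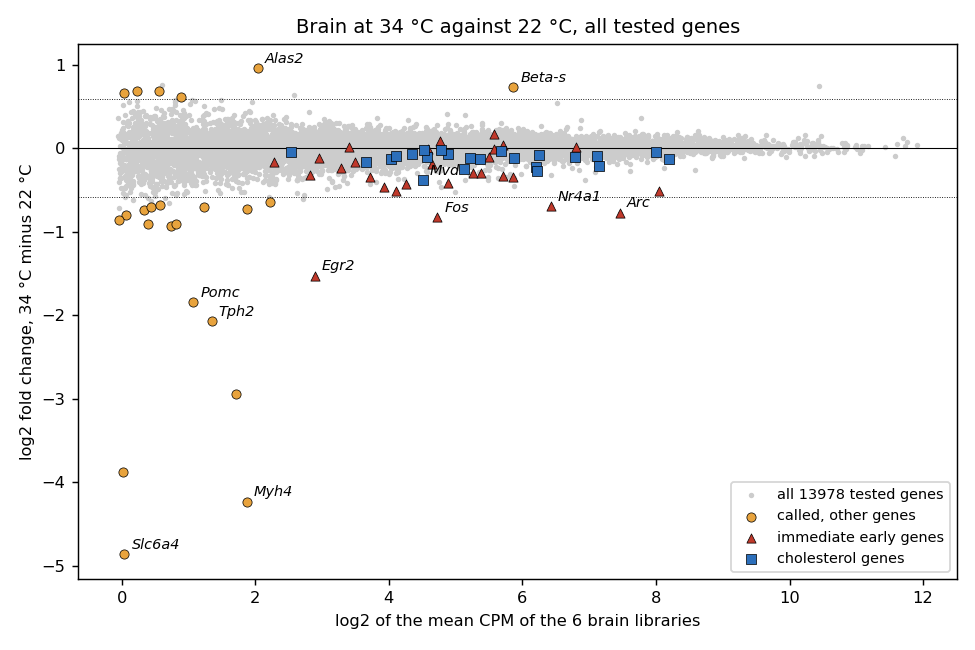
Mean level of each tested gene in brain (x axis, log2 of mean CPM over the 6 libraries) against its log2 fold change at 34 °C over 22 °C (y axis). Immediate early genes, called or not, are red triangles, the other called genes are orange, cholesterol genes are blue squares, and dotted lines mark a fold of 1.5. Called genes sit mostly at low CPM, and the 23 cholesterol genes all lie just below 0.

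Of the 5 called genes with a mean of at least 10 CPM in a group, 4 were immediate early genes, and the other was the globin Beta-s. Of the 28 immediate early genes on the list, all tested, 4 were called and all of them fell at 34 °C: Arc, Egr2, Nr4a1 and Fos. A further 6 members had an unadjusted p of at most 0.05 and were lower at 34 °C without reaching the fold of 1.5: Ier5, Sik1, Trib1, Egr1, Dusp1 and Dusp6. That makes 10 of 28 members at this p and lower, beside 1.42% of all tested genes, and none higher. In all, 23 of 28 members had a log2 fold change below 0, against 49.8% of all genes, and the median over the list was -0.30 against 0.00 over all tested genes. Without RT 2 the median was -0.10 and without warm 3 it was -0.17, with 19 of 28 members below 0 in each of these fits. The summed level of the list was 1107, 1666 and 1539 CPM in the RT libraries and 1027, 1316 and 1003 CPM in the warm libraries, so RT 1 lay within the warm range.

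The 250 bases before the start of some of these genes are shown because the cAMP response element, bound by CREB once calcium or cAMP rises, is the best known element of activity-driven promoters. Of the 28 genes, 22 had an entry in the RefSeq promoter table of GRCm38.p6. The letters TGACG, searched on both strands and counted also within the full element TGACGTCA, stood in 15 of 22 (68.2%), against 19.8% of all 27025 genes in that table. The full element TGACGTCA stood in 2 of 22 (9.09%) against 1.77%, and the CArG box, the core that serum response factor binds, in 1 of 22 (4.55%) against 1.62%. Fos and Nr4a1 were called, and Dusp1 is shown for its full element. The stretch of Egr2, which was also called, held 0 copies of TGACG on either strand at the start nearest that of GENCODE. Those of Ier5 and Dusp6 held 0 copies as well, and these stretches are not shown. The RefSeq starts of Nr4a1 and Dusp1 lie within the longer spans that GENCODE gives these genes, so their stretches are inside those spans. In the following lines capitals mark TGACG or its reverse complement CGTCA, and the full element where it is present.
Fos, chr12:85473640-85473889, plus strand: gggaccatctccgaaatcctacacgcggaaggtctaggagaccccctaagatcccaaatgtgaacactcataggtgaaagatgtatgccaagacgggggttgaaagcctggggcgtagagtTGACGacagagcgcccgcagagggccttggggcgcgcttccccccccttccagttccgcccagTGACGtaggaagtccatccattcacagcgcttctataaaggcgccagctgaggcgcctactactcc
Nr4a1, chr15:101266596-101266845, plus strand: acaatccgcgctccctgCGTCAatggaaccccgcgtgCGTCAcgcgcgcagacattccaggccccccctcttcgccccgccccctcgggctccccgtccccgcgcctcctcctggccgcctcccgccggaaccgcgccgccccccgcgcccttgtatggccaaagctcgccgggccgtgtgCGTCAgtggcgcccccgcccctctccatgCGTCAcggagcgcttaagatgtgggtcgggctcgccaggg
Dusp1, chr17:26508473-26508722, minus strand: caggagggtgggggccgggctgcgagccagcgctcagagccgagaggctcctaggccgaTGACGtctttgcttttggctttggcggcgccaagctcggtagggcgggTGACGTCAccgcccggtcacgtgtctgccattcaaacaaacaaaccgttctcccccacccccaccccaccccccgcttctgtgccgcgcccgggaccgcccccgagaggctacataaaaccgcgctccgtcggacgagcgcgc

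Arc, on chr15:74669083-74672570 of GRCm38, minus strand, encodes a protein that carries RNA between neurons and removes AMPA receptors from active synapses. It stood at 140, 272 and 254 CPM in the RT libraries 1 to 3 and at 105, 166 and 119 CPM in the warm libraries 1 to 3, which gives 222 ± 71.6 (SD, n = 3) at 22 °C and 130 ± 31.9 (SD, n = 3) at 34 °C. The log2 fold change was -0.77 (SE 0.22, unadjusted p = 0.0053 in edgeR's quasi-likelihood test, adjusted p = 0.9997). RT 2 and RT 3 were above every warm library, but RT 1 was below warm 2, so the groups overlapped. Arc was called again in each of the 6 fits that left out a library, as were Egr2 and, of the genes outside the list, Glra1 and Tph2.

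Egr2 (chr10:67535475-67542188, plus strand), a zinc finger transcription factor of active neurons and of myelinating Schwann cells, was at 4.86, 16.3 and 11.8 CPM at 22 °C and at 3.08, 6.37 and 1.88 CPM at 34 °C, a log2 fold change of -1.52 (SE 0.45). Fos (chr12:85473890-85477273, plus strand), which pairs with Jun proteins in the factor AP-1, was at 21.4, 43.9 and 36.2 CPM at 22 °C and at 14, 28 and 14.9 CPM at 34 °C, a log2 fold change of -0.83 (SE 0.28). Nr4a1 (chr15:101254269-101274795, plus strand), an orphan nuclear receptor, was at 65.7, 127 and 125 CPM at 22 °C and at 53.8, 85.4 and 56.8 CPM at 34 °C, a log2 fold change of -0.70 (SE 0.23). The order of libraries was alike in these genes: RT 2 and RT 3 were high, RT 1 was low, and warm 2 was the highest of the warm libraries and above RT 1. The call of Fos was lost without RT 2 (log2 fold change -0.60, unadjusted p = 0.059) and without warm 3 (-0.68, unadjusted p = 0.052) and in DESeq2 (unadjusted p = 0.060). The call of Nr4a1 was lost without RT 2 (-0.54, unadjusted p = 0.049), without RT 3 (-0.56, unadjusted p = 0.048) and without warm 1 (-0.57, unadjusted p = 0.041), where its fold was under 1.5.

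Ier5, a regulator of heat shock factor 1, had the smallest p of the list. It was at 59.3, 64.4 and 70.3 CPM at 22 °C and at 47.7, 53.7 and 51.2 CPM at 34 °C, a log2 fold change of -0.35 (SE 0.07, unadjusted p = 0.00076), with every warm library below every RT library. Sik1, a kinase that holds back CREB signalling, was at 17.1, 22.5 and 20.9 CPM against 12.1, 16.4 and 13.9 CPM, a log2 fold change of -0.51 (SE 0.13), again without overlap. In 4 of the 28 genes every warm library was below every RT library, against 3.73% of all tested genes, and in none was the order the other way (2.88% of all genes). Egr1, the best known early growth response gene, was at 219, 350 and 366 CPM against 197, 253 and 207 CPM, a log2 fold change of -0.51 (SE 0.16). Trib1 (log2 fold change -0.43), Dusp1 (-0.42) and Dusp6 (-0.33) likewise had RT 1 as the lowest of the RT group and warm 2 as the highest of the warm group.

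Other members did not pass the test. Npas4, a factor induced by neuronal calcium, was at 24.7 to 28.4 CPM at 22 °C and 27.5 to 28.6 CPM at 34 °C (log2 fold change 0.09, SE 0.07), and Nr4a2 was at 38.1 to 56.1 CPM and 44.1 to 55.5 CPM (0.17, SE 0.13). Jun stood at -0.00, Fosb at -0.17 (SE 0.24), Junb at -0.30 (SE 0.22), Bdnf, a growth factor of neurons, at -0.19 (SE 0.13), and Homer1, a scaffold of the synapse, at 0.01 (SE 0.09) on the log2 scale. Klf10, a repressor induced by growth factors that is not on the list, was at 29.4, 37.9 and 44.5 CPM against 24.3, 29.2 and 24.4 CPM, a log2 fold change of -0.52 (SE 0.13).

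**Figure D2:**
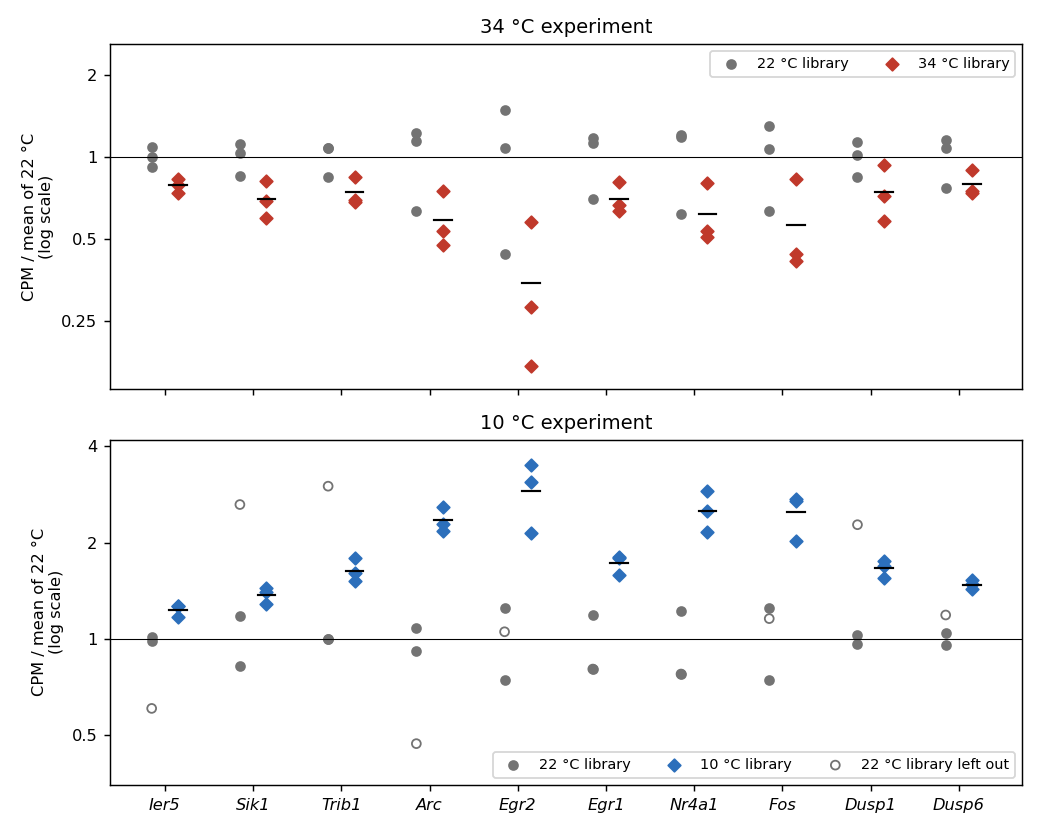
CPM of the 10 immediate early genes with an unadjusted p of at most 0.05 at 34 °C, all lower there, in each brain library. Values are divided by the mean of the 22 °C libraries of the same experiment (y axis, log scale), for the 34 °C experiment and the 10 °C experiment. Black bars mark the mean of the treated libraries, and an open circle the 22 °C library of the cold experiment that was left out of the fit. The other members of the list are not drawn. The warm libraries lie mostly below 1, which follows from how the 10 genes were chosen. They overlap the RT libraries in Arc, Egr2, Fos, Nr4a1 and Egr1 but not in Ier5 and Sik1. The cold libraries lie above 1 for most of these genes.

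The brain was also sampled at 10 °C in the series, against its own 22 °C controls, from males labelled C57BL/6 (C57BL/6J in the study's methods), 11 weeks old, that came from another supplier and whose libraries were sequenced at another centre. The question was whether the response of a gene at 34 °C differed from its response at 10 °C, which was tested as the difference between both log2 fold changes, each within its own experiment. The 22 °C library 2 of the cold experiment was left out because the authors' own comparison leaves it out, which leaves 3 libraries against 2. That library also stood apart from the others, with Insig1 at 348 CPM against 79.6 and 84.7 CPM in the other 22 °C libraries. By the study's methods, cold mice reached 10 °C in steps and spent less time there than warm mice spent at 34 °C. Their brain libraries were made with another kit and run on another model of sequencer. Experiment, supplier, kit, sequencing centre and temperature cannot be told apart in levels, so only responses were compared. The responses still differ in the length and course of exposure as well as in temperature. The part of each was not tested. Across all genes 132 of 13673 differed by the call rule (0.965%), 99 of them with the lower response at 34 °C (0.724%).

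The list of immediate early genes had medians of opposite sign at 34 °C and 10 °C. At 10 °C, 13 of 28 members rose by the call rule (0.492% of all genes did), 22 were higher with an unadjusted p of 0.05 or below (5.25%), and the median log2 fold change over the list was 0.57. The response at 34 °C was lower than that at 10 °C by the call rule in 18 of 28 members, and higher in none. Arc was at 315, 376 and 333 CPM at 10 °C against 157 and 134 CPM in its controls, a log2 fold change of 1.23 (SE 0.09) and 1 of 13 genes (0.094%) that passed an adjusted p under 0.05 in edgeR's quasi-likelihood test at 10 °C, so its responses differed by -2.01 (SE 0.30, adjusted p = 0.052 in edgeR's quasi-likelihood test). Trib1 had the same adjusted p, with a difference of -1.15 (SE 0.18). The other 3 of the 5 smallest p among genes with the lower response at 34 °C were Ier5 (-0.66, SE 0.11), Nr4a1 (-2.06, SE 0.36) and Klf10 (-1.08, SE 0.19). Fos (-2.17, SE 0.42) and Egr2 (-3.11, SE 0.66) were called as well. No gene passed an adjusted p under 0.05 in this fit, while DESeq2 gave 21, and 459 genes had the lower response at 34 °C at an unadjusted p of at most 0.05 (3.36%). Of the 27 genes called in brain at 34 °C, 25 were tested and 17 were called for this difference, 16 of them with the lower response at 34 °C. The 27 were chosen on the response at 34 °C, which is part of this difference, so nothing is read from that share. In the 5 with the smallest p in the other direction, which share no list, the responses differed by 1.24 (SE 0.30) for 2310030G06Rik, 0.34 (SE 0.09) for Elk1, an ETS factor that acts with serum response factor, 0.48 (SE 0.13) for Nmral1, 0.97 (SE 0.28) for Dazl and 0.38 (SE 0.11) for Cmtm5. With the library that stood apart put back, 396 genes were called, 95 of them with the lower response at 34 °C, 13 of the 28 members were called, and the smallest adjusted p was 0.82 in edgeR's quasi-likelihood test in place of 0.052. The experiments share no control library.

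The fitted log2 fold changes of cholesterol genes were small and below 0. None of the 23 tested members of the list of SREBP2 targets was called, since no member reached a fold of 1.5, but 23 of 23 had a log2 fold change below 0 (49.8% of all genes did), and their median was -0.11, with a range of -0.38 to -0.02. Without 1 library the number below 0 was 20 (without warm 3) to 23 of 23. In 6 members the unadjusted p was at most 0.05, beside 1.42% of all genes that were so and lower. In 9 of 23 every warm library was below every RT library, beside 3.73% of all genes. The summed level of the list was 1633, 1691 and 1625 CPM in the RT libraries and 1501, 1543 and 1504 CPM in the warm libraries, which do not overlap. The sum of 20 myelin genes (8027 to 8774 CPM at 22 °C, 7791 to 8158 CPM at 34 °C) and that of 15 astrocyte genes (7555 to 8973 CPM, 7559 to 8737 CPM) overlapped between groups, and the part of glia in the cholesterol genes was not tested. The cholesterol genes share a pathway and the same 6 libraries, so they are not independent of each other.

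The promoters of some of these genes are shown for the CCAAT box, bound by NF-Y, the partner with which SREBP2 acts. Of the list, 16 genes had an entry in the promoter table, and CCAAT, searched on both strands, stood in 16 of 16 (100%), against 37.5% of all genes and 36.4% of the immediate early genes. The sterol regulatory element, searched as TCACNCCAC on both strands, stood in 1 of 16 (6.25%), that of Hmgcs1, against 1.22% of all genes. TGACG stood in 43.8% of them. Mvd, Hmgcs1 and Cyp51, each with an unadjusted p of at most 0.05, are given below, with CCAAT or its reverse complement ATTGG, and the sterol element, in capitals.
Mvd, chr8:122443423-122443672, minus strand: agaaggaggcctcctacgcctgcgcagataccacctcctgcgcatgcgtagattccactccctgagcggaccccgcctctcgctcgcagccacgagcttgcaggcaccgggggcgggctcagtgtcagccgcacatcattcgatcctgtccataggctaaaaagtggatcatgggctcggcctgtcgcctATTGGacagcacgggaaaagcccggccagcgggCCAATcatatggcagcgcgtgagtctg
Hmgcs1, chr13:119690101-119690350, plus strand: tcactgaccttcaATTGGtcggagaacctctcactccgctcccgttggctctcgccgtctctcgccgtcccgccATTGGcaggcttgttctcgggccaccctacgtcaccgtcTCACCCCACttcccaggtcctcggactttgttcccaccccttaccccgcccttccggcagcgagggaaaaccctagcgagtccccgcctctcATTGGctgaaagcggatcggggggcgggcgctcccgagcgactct
Cyp51, chr5:4104698-4104947, minus strand: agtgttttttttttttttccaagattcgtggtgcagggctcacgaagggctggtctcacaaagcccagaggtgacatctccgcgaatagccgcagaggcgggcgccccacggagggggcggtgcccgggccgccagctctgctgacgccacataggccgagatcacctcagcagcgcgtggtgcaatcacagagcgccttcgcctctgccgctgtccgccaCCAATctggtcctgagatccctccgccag

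Mvd (chr8:122433601-122443422, minus strand), which makes isopentenyl pyrophosphate from mevalonate, had the largest fold of the list. It was at 25.1, 27.9 and 24.1 CPM at 22 °C and at 18.9, 20.4 and 19.8 CPM at 34 °C, a log2 fold change of -0.38 (SE 0.08, unadjusted p = 0.00053). Insig1 (chr5:28071363-28078662, plus strand), which holds the SREBP complex in the endoplasmic reticulum and is itself a target, was at 74.7, 82.1 and 80.3 CPM against 66.3, 66.0 and 70.4 CPM, a log2 fold change of -0.23 (SE 0.06). The groups did not overlap in either gene.

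Cyp51 (chr5:4081145-4104746, minus strand), the lanosterol demethylase, was at 73.0, 91.9 and 78.5 CPM against 67.9, 65.6 and 67.7 CPM, a log2 fold change of -0.27 (SE 0.08). Hmgcs1, an early enzyme of the pathway, was at 302, 319 and 292 CPM against 279, 287 and 271 CPM, a log2 fold change of -0.13 (SE 0.05). These genes too were lower in each warm library than in any RT library. Mvd, Insig1 and Cyp51 kept an unadjusted p of at most 0.05 in each of the 6 fits without a library. Members near 0 included Srebf2, which encodes SREBP2, at -0.04 (SE 0.05), Sqle at -0.08 (SE 0.05) and Fdft1 at -0.10 (SE 0.07) on the log2 scale.

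**Figure D3:**
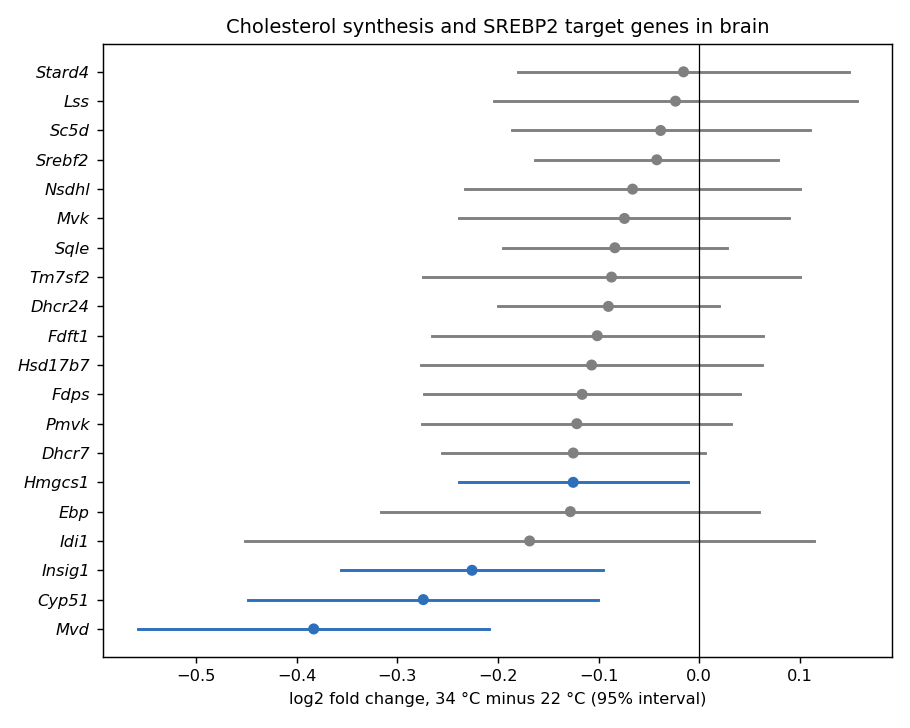
Log2 fold change in brain at 34 °C over 22 °C (x axis) of 20 of the 23 tested genes of cholesterol synthesis and SREBP2 targets, each with its 95% interval from the fit of 6 libraries, in blue where the unadjusted p is at most 0.05. All 20 points lie below 0, from -0.38 for Mvd to -0.02, and 4 intervals do not reach 0.

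At 10 °C the median of the cholesterol list was 0.00, and 1 member, Idi1, rose by the call rule. The response at 34 °C was below that at 10 °C with an unadjusted p of at most 0.05 in 6 members, beside 3.36% of all genes, with a difference of -1.05 (SE 0.38) for Idi1, -0.31 (SE 0.13) for Cyp51 and -0.18 (SE 0.08) for Hmgcs1. For both the immediate early and the cholesterol genes the counts rest on the spread among brain libraries. In a fit of 24 libraries that shared its estimate of the spread with brown adipose tissue (BAT), liver and ileum, no member of either list had an unadjusted p of at most 0.05.

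Several of the 21 genes that fell were carried by a single library or a pair of libraries. Slc6a4 (chr11:76998603-77032340, plus strand), the serotonin transporter, was at 2.37, 0.0608 and 3.54 CPM at 22 °C and at 0.0609, 0.131 and 0 CPM at 34 °C, a log2 fold change of -4.87 (SE 1.12). Tph2 (chr10:115078641-115185022, minus strand), the enzyme that makes serotonin in the raphe nuclei of the brainstem, was at 4.06, 1.28 and 6.94 CPM against 0.690, 0.753 and 1.5 CPM, a log2 fold change of -2.07 (SE 0.51). Both genes were high in RT 1 and RT 3 and low in RT 2, where they lay within the range of the warm libraries. At so few counts the fitted fold of Slc6a4 depends on the prior count. Of 10 markers of serotonin neurons, a list made around Slc6a4 and Tph2 after their values were seen, 7 were tested and those 2 were called and lower, beside 0.15% of all genes, from which nothing is read. Ddc, the decarboxylase of serotonin and dopamine synthesis, was at 12.2, 8.70 and 12.8 CPM against 7.75, 8.71 and 9.56 CPM (log2 fold change -0.38, unadjusted p = 0.027). Fev, the factor that defines these neurons, was at most 0.233 CPM in any library. Glra1, a glycine receptor subunit of brainstem and spinal cord, was at 2.02, 1.89 and 2.67 CPM against 0.710, 1.33 and 1.39 CPM, a log2 fold change of -0.94 (SE 0.27). The whole serotonin list summed to 50.7, 36.9 and 57.6 CPM at 22 °C and to 37.0, 40.1 and 41.9 CPM at 34 °C, sums that include the 2 called genes.

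Genes of skeletal muscle fibres were called through RT 1 alone. Myh4, the fast myosin heavy chain, was at 19.7 CPM in RT 1 and at 0.262 to 0.565 CPM in the other 5 libraries. Atp2a1, the calcium pump of fast muscle, was at 14.6 CPM in RT 1 and at 0.669 to 2.13 CPM in the others, and Tnnt3, fast troponin T, at 5.48 CPM and at 0.0203 to 0.171 CPM. Ttn, titin, was at 3.74 CPM in RT 1 and 1.12 to 1.81 CPM elsewhere. Over 15 muscle genes, listed after these values were seen, the summed level was 79.7 CPM in RT 1 and 14.2 to 16.3 CPM in the other libraries. Without RT 1, Atp2a1 had a log2 fold change of -0.90 (unadjusted p = 0.069) and Ttn of -0.35 (unadjusted p = 0.21), while Myh4 and Tnnt3 were too low to be tested.

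Pomc, the precursor of corticotropin and beta-endorphin, followed RT 2, at 7.99 CPM there and 0.609 to 1.10 CPM in the other libraries, and it was too low to be tested without it. The summed level of 8 pituitary hormone genes was 24.4 CPM in RT 2 and 16.2 CPM in warm 2 against 1.2 to 3.17 CPM in the other libraries, and Gh, growth hormone, was at 14 CPM in RT 2 and 12.3 CPM in warm 2 but at most 1.73 CPM elsewhere. Among the genes that rose, Alas2, the enzyme of heme synthesis in red cell precursors, was at 3.93, 2.33 and 2.08 CPM against 3.16, 4.54 and 8.56 CPM (log2 fold change 0.96, SE 0.34), and Beta-s, listed as a beta globin, at 57.8, 39.3 and 34.1 CPM against 38.9, 62.0 and 117 CPM (0.73, SE 0.32). Both were highest in warm 3, and without warm 3 their log2 fold changes were 0.47 (unadjusted p = 0.13) and 0.21 (unadjusted p = 0.37). The globin value is uncertain, since its near-identical copies Hbb-b1 and Hbb-b2 were listed at 0 counts.

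The other called genes were low. Among those whose groups did not overlap, Mab21l1, a developmental gene of the midbrain and eye, was at 5.81, 6.25 and 4.93 CPM against 2.82, 3.91 and 4.10 CPM (log2 fold change -0.65, SE 0.17), and Shox2, a homeobox gene expressed in thalamus, at 2.57, 3.16 and 3.01 CPM against 1.12, 1.80 and 2.43 CPM (-0.70, SE 0.26). Wisp1, a secreted matrix protein of the WNT pathway, was at 3.35, 4.24 and 6.10 CPM against 2.92, 3.18 and 2.14 CPM (-0.73, SE 0.24). Fbxw10 (-0.80), Gpr179 (-0.74), Exd1 (-0.86), Fam19a4 (-0.70), Dapk2 (-0.68) and Lrrc71 (-0.90) fell and were between 0.649 and 2.74 CPM in every library. The other genes that rose were Col14a1, a collagen of fibroblasts, at 1.33, 1.91 and 1.18 CPM against 2.29, 2.59 and 1.82 CPM (0.61, SE 0.24), BC037704 (0.69), 5830403L16Rik (0.66) and Gm19522 (0.68), all at most 2.59 CPM.

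The smallest unadjusted p-values belonged to genes with folds under 1.5, which were picked for mention by that p after their values were seen. Inadl, a scaffold of tight junctions, was at 31.3, 28.2 and 32.4 CPM against 21.1, 23.9 and 24.2 CPM, a log2 fold change of -0.41 (SE 0.08, unadjusted p = 0.00045). Syt2, the fast calcium sensor of transmitter release in hindbrain and in fast-spiking interneurons, was at 57.1, 51.9 and 58.4 CPM against 40.01, 44.6 and 45.9 CPM (-0.36, SE 0.07). Aldh1a1, which makes retinoic acid and marks a class of dopamine neurons, was at 70.7, 73.3 and 65.0 CPM against 56.5, 58.1 and 53.9 CPM (-0.31, SE 0.06). Itih3, a hyaluronan-binding protein, stood at -0.30 (SE 0.07), Tnnt1, slow troponin T, at -0.55 (SE 0.12), Sparc, a matrix protein secreted by glia and vessels, at -0.27 (SE 0.06), and Ide, an insulin-degrading enzyme, at -0.23 (SE 0.05). In none of these did the groups overlap, which was so, and lower, in 3.73% of all tested genes. A choice by small p favours genes without overlap, so nothing is read from it. Of the genes with the opposite sign, B3galt2 was at 39.6, 36.7 and 39.7 CPM against 45.7, 47.2 and 43.6 CPM (0.23, SE 0.06) and Gpr22 at 51.2, 52.4 and 45.6 CPM against 61.1, 58.3 and 56.7 CPM (0.24, SE 0.07).

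Markers of brain regions varied between pools. Of 12 tested markers of thalamus and midbrain neurons, 2 were called (Slc6a4 and Tph2), 4 had an unadjusted p of at most 0.05 and all of these were lower at 34 °C, and the median was -0.31. Of all tested genes 0.15% were called and lower, and 1.42% had such a p and were lower, and the 2 called are those counted among the serotonin markers above. Prkcd, a kinase strong in sensory thalamus, was at 62.4, 60.3 and 80.4 CPM against 46.4, 45.2 and 57.0 CPM (log2 fold change -0.45, SE 0.12), with no overlap, and Slc17a6, the vesicular glutamate transporter of thalamus and brainstem, at 81.6, 68.4 and 93.6 CPM against 56.1, 63.2 and 78.8 CPM (-0.30, SE 0.13). The summed level of the thalamus and midbrain list was 221, 190 and 271 CPM against 159, 176 and 201 CPM. Among 12 markers of cerebellum neurons none was called, but the spread was wide: Gabra6, a receptor subunit of granule cells, ran from 0.448 CPM in RT 3 to 17.4 CPM in RT 2, and Cbln3, made by the same cells, from 1.64 to 56.4 CPM in those libraries. The cerebellar markers were lowest in RT 3 and warm 3, and Gabra6 did not pass the test between groups (-0.49, SE 0.77).

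Of 17 markers of choroid plexus none had an unadjusted p of at most 0.05. Their sum ran from 1561 CPM in RT 3 to 3108 CPM in RT 2, with 1731 to 2284 CPM at 34 °C, and Ttr, the carrier of thyroxine in cerebrospinal fluid, from 787 to 1835 CPM. All 8 tested olfactory bulb markers had log2 fold changes above 0, from 0.06 to 0.23, and Pcdh8 had an unadjusted p of 0.021. In striatum, 9 of 12 markers were above 0. Of all 13978 tested genes 7011 were above 0. Drd1a, the D1 dopamine receptor, was at 45.8, 44.2 and 44.4 CPM against 56.9, 47.8 and 49.3 CPM (0.20, SE 0.07). The levels of cerebellum, choroid plexus, pituitary and muscle markers thus differed between pools, and the part of these differences in the genes lower at 34 °C was not tested.

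**Figure D4:**
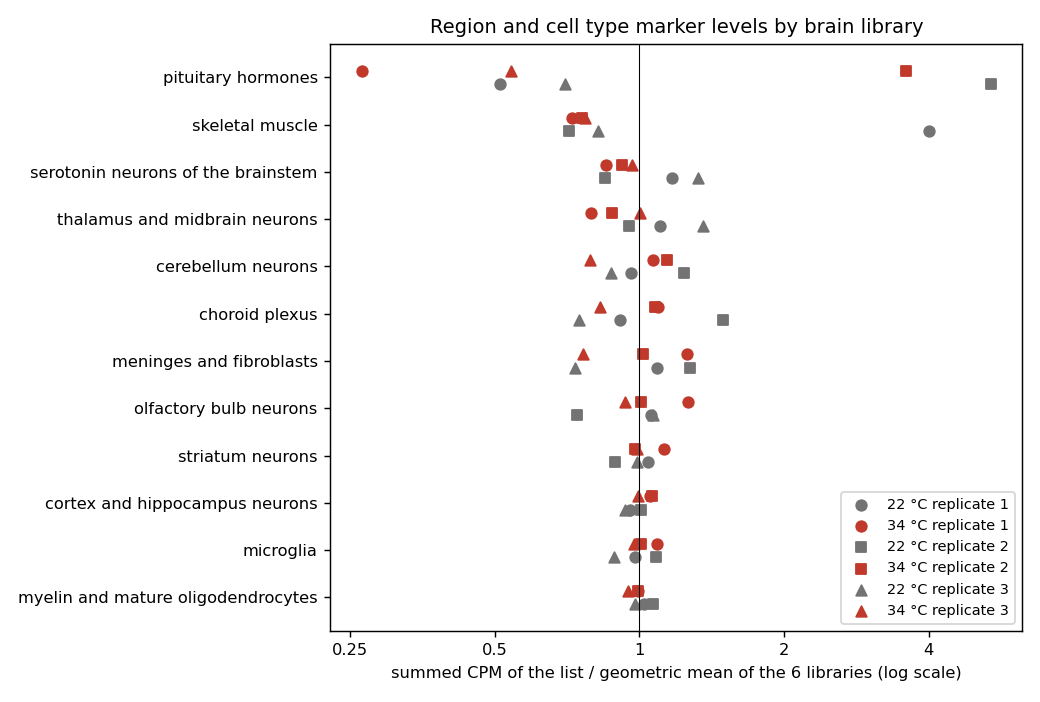
Summed CPM of 12 lists of marker genes in each of the 6 brain libraries, divided by the geometric mean of the 6 libraries (x axis, log scale), for RT and warm libraries. Muscle genes stand out in RT 1 and pituitary genes in RT 2 and warm 2, cerebellar genes are low in RT 3 and warm 3, and the microglia and myelin lists stay close to 1.

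No glial or vascular marker was called. Of 20 myelin genes 16 had a log2 fold change below 0 (49.8% of all genes did), with a median of -0.06. Gjb1, a gap junction protein of oligodendrocytes, was at 17.7, 17.6 and 17.5 CPM against 15.4, 15.9 and 13.8 CPM (log2 fold change -0.23, SE 0.08). Mbp, myelin basic protein, was at 3061 to 3280 CPM and 2947 to 2965 CPM (-0.10, SE 0.05). Of 11 genes of oligodendrocyte precursors and new oligodendrocytes, Tnr (0.26, SE 0.11), Cspg4 (0.17, SE 0.07), which also marks pericytes, and Bcas1 (-0.11, SE 0.05) had an unadjusted p of at most 0.05. Among 15 astrocyte genes Agt, angiotensinogen, had a log2 fold change of -0.26 (SE 0.08) and no other member an unadjusted p of at most 0.05. Of 14 microglia genes 13 were above 0 (7011 of all 13978 tested genes were), with a median of 0.07 and no unadjusted p of at most 0.05. Tmem119 stood at -0.05 (SE 0.09) and Cx3cr1 at 0.08 (SE 0.12). No member of 18 endothelial genes, 15 interferon stimulated genes or 10 genes of MHC and complement had an unadjusted p of at most 0.05.

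The clock genes with an unadjusted p of at most 0.05 were Per1, Nr1d1, Bhlhe40 and Nfil3, all lower at 34 °C. Of all tested genes 1.42% had such a p and were lower. Per1, a repressor of the clock that is also induced by activity, was at 114, 154 and 147 CPM at 22 °C and at 93.6, 107 and 118 CPM at 34 °C, a log2 fold change of -0.38 (SE 0.11, unadjusted p = 0.0056). Bhlhe40, another inducible repressor, was at 137, 157 and 154 CPM against 109, 122 and 136 CPM (-0.29, SE 0.08), and Nfil3 was at -0.27 (SE 0.11). Nr1d1 was at -0.15 (SE 0.06). Arntl (-0.10, SE 0.12), Clock (-0.02, SE 0.09), Per2 (-0.00, SE 0.15), Cry1 (0.10, SE 0.12) and the output gene Dbp (0.01, SE 0.16) had intervals that include 0. None of 12 clock and 6 output genes was called.

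No heat shock chaperone rose at 34 °C. Of 22 tested none was called, 19 had a log2 fold change below 0 (49.8% of all genes did), and the median was -0.06. The only unadjusted p of at most 0.05 was that of Dnajb5, at 104, 129 and 144 CPM against 101, 104 and 111 CPM (log2 fold change -0.25, SE 0.10). Hspa1a, the inducible HSP70, was at 4.02 to 5.78 CPM at 22 °C and 4.06 to 5.44 CPM at 34 °C (-0.03, SE 0.17), Hspa1b, its close copy, at -0.14 (SE 0.17), and Hspa8, its constitutive relative, stood at -0.05 (95% interval -0.15 to 0.05). The cold-inducible RNA-binding proteins, which rise when cells cool, did not pass the test: Cirbp was at 83.9, 62.6 and 67.9 CPM against 69.3, 73.7 and 78.1 CPM (0.04, SE 0.10), and Rbm3 at 96.3, 74.6 and 69.8 CPM against 63.5, 71.3 and 85.7 CPM (-0.13, SE 0.13). The intervals were -0.17 to 0.26 for Cirbp and -0.41 to 0.15 for Rbm3.

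Thyroid hormone genes gave 1 member lower and 1 higher among 12 tested at an unadjusted p of at most 0.05. At that p, 1.42% of all tested genes were lower and 1.22% higher. Every warm library was below every RT library in 3.73% of all tested genes, and above in 2.88%. Hr, a corepressor induced by thyroid hormone, was at 46.7, 46.6 and 58.9 CPM against 36.4, 38.0 and 42.3 CPM (log2 fold change -0.38, SE 0.10), without overlap, and Crym, which binds the hormone in the cytosol, was at 97.9, 99.0 and 80.5 CPM against 108, 108 and 99.1 CPM (0.18, SE 0.08), also without overlap. Klf9, another target of the hormone, was at -0.10 (SE 0.05), and Dio2, the deiodinase that activates it, at -0.03 (SE 0.10). Of 15 retinoid genes Aldh1a1, given above, and Rara, a retinoic acid receptor (-0.22, SE 0.09), were lower at that p. Among 21 genes responsive to glucocorticoid or FOXO factors none was called, with Errfi1 at -0.20 (SE 0.09), Fkbp5 at 0.08 (SE 0.10) and Sgk1 at -0.12 (SE 0.21). Of the thermosensitive TRP channels 6 of 11 were tested and none was called. Trpc5 stood at 0.29 (SE 0.13, unadjusted p = 0.048), Trpv2 at -0.08 (SE 0.07) and Trpm2 at -0.07 (SE 0.08). In the 11 tested genes of hypoxia and vessel growth, Apln, a vascular peptide, stood at -0.19 (SE 0.07), and in the 14 neuropeptides, Adcyap1, the precursor of PACAP, at -0.26 (SE 0.10).

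No receptor subunit of the main transmitters was called. Among 22 glutamate receptor subunits 17 had a log2 fold change above 0 (7011 of all 13978 tested genes did), and the median was 0.07. Grin2b, the NMDA receptor subunit of the forebrain, was at 63.6, 75.0 and 86.1 CPM against 130, 129 and 67.5 CPM (log2 fold change 0.54, SE 0.20, unadjusted p = 0.023), so warm 3 lay within the RT range while the other warm libraries were above it. Of 15 GABA receptor subunits 12 were above 0. Genes of glycolysis and glucose transport had a median of -0.00 over 21 tested, and those of the unfolded protein and integrated stress responses a median of 0.01 over 19, with Chac1, a target of the latter, at 0.29 (SE 0.12). The hindbrain Hox genes summed to at most 0.324 CPM in any library, and none of the 11 was tested.

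**Figure D5:**
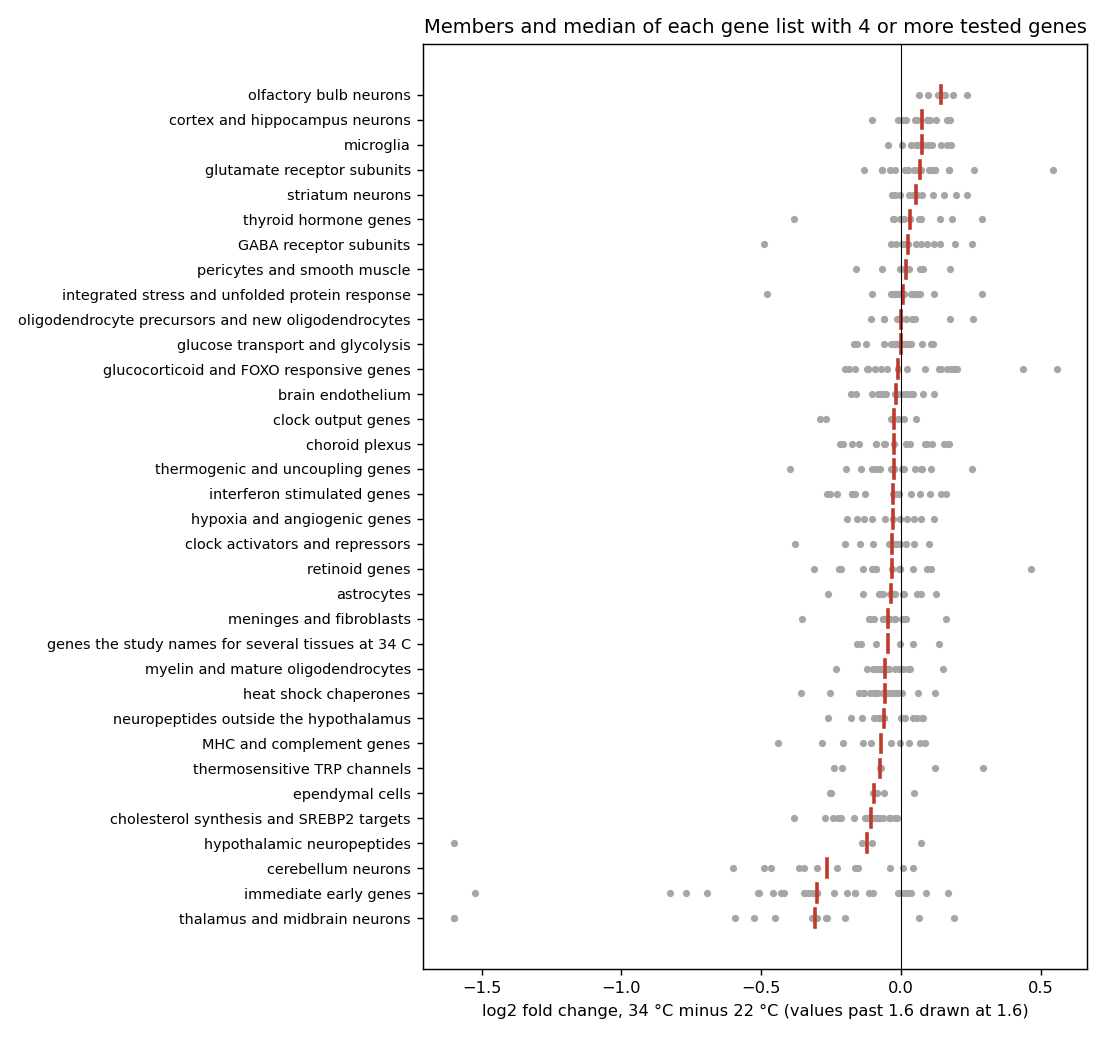
Log2 fold change in brain at 34 °C over 22 °C (x axis) for the tested members of each gene list with at least 4 of them, as points, with the median of each list as a bar, values beyond 1.6 drawn at 1.6. The muscle and serotonin lists, made after values were seen, are not drawn. Of the lists drawn, the medians of the thalamus and midbrain, immediate early and cerebellum lists lie lowest, at -0.31, -0.30 and -0.26.

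The brain response was last set against that of other tissues of the same experiment, in a fit of 24 libraries from brain, BAT, liver and ileum. In that fit, 2888 of 15044 genes were called in BAT (19.2%), 700 in liver (4.65%) and 1034 in ileum (6.87%). The responses of brain and BAT differed by the call rule in 2418 genes (16.1%), and in 2120 (14.1%) at an adjusted p under 0.05 in edgeR's quasi-likelihood test. Brain against liver gave 525 genes (3.49%), 3 (0.0199%) at that adjusted p (Vldlr, Moxd1 and Nucb2, named after their values were seen), and brain against ileum gave 562 (3.74%), with Zfp354a alone (0.00665%) at that adjusted p. Of the 27 genes called in brain, 6 differed by the call rule from BAT (Slc6a4, Arc, Egr2, Fos, Dapk2 and Gm19522), 4 from liver (Slc6a4, Myh4, Nr4a1 and Dapk2) and 2 from ileum (Slc6a4 and Dapk2). The 27 were chosen on the brain response, which is part of each difference, so nothing is read from these counts. Arc, lower at 34 °C in brain, rose in BAT from a mean of 1.25 to 5.80 CPM (log2 fold change 2.27, SE 0.51), a difference between responses of -3.03 (SE 0.65, adjusted p = 0.0045). Dapk2, a calcium-dependent death-associated kinase, rose in BAT from 3.54 to 8.03 CPM (1.18, SE 0.20), a difference of -1.86 (SE 0.29, adjusted p = 0.00032).

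Of 10 genes that the study names for several tissues at 34 °C, a list chosen on these samples and so no independent evidence of direction, 6 were tested in brain and none was called. Scd1, the desaturase that makes oleate and is abundant in fat, was at 279, 308 and 286 CPM against 272, 264 and 254 CPM (log2 fold change -0.14, SE 0.05), beside -1.77 (SE 0.60) in BAT, and the responses differed by 1.63 (SE 0.83, adjusted p = 0.21). Pfkfb3, a regulator of glycolysis, stood at -0.16 (SE 0.07) in brain and -0.79 (SE 0.34) in BAT. Cyp26b1, which degrades retinoic acid, was at 15.5, 13.6 and 12.3 CPM against 16.7, 13.7 and 12.4 CPM in brain (0.04, SE 0.12), beside 2.19 (SE 0.82) in BAT, a difference of -2.15 (SE 1.07, adjusted p = 0.20). Zbtb16, a transcription factor of adipocytes and lymphocytes, was at 37.3, 40.4 and 39.1 CPM against 41.4, 43.1 and 43.8 CPM (0.14, SE 0.06), with no overlap, beside 1.52 (SE 0.66) in BAT. Lonrf3 stood at -0.01 (SE 0.08) and Pnpla3 at -0.09 (SE 0.15), and Mrap, Orm1, Slc36a2 and Tlcd2 were at most 1.22 CPM in every library. For Scd1, Pfkfb3, Cyp26b1 and Zbtb16 the difference between brain and BAT did not pass an adjusted p of 0.05, which does not show that the tissues respond alike.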

How the data were processed

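Brain libraries of the warm experiment (TruSeq stranded mRNA kit, a pair of mice pooled in each) were sequenced as single reads. The authors aligned reads to mm10 (GRCm38) with STAR, counted them per gene with HTSeq and deposited raw counts. The submitters' processing notes name STAR 2.5.3a, Picard 1.141 and HTSeq 0.6p1. Whether counting used strand is not given in the sources used here, so overlapping and antisense genes are uncertain.

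The fit kept genes whose log2 CPM averaged over 0, scaled the counts by TMM and used the two-sided quasi-likelihood F-test of edgeR 4.0.16, with Benjamini-Hochberg adjustment, on the 6 brain libraries. The 10 °C table was joined by symbol (19168 genes) or older symbol (1020). Alternatives were edgeR's exact test, DESeq2 1.42.0, library-size scaling, other filters, a fit shared with other tissues, a replicate block and leaving out each library. The scripts were tested on simulated data.

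Members, gene lists and tests were chosen with earlier results of these data known. Genes named were the called genes, list members that were called or reached an unadjusted p of 0.05, a fixed set of stress, clock and tissue genes, and the 5 smallest p in each direction for 34 °C against 10 °C. Further list members were named to show those near 0, and others are marked where they appear. Promoters are from RefSeq (GRCm38.p6) and positions from GENCODE M21. No member of the list of mitochondrially encoded genes was in the table. Some genes of the lists are counted but not reported here by name.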

Additional observations from a re-analysis of the deposited data

Results flagged for a closer look

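The fall of Arc in brain at 34 °C differed from its response in BAT, where it rose. In the fit of 24 libraries the response in brain minus that in BAT was -3.03 on the log2 scale (SE 0.65, adjusted p = 0.0045 in edgeR's quasi-likelihood test), which is what drew attention to it. Arc is low in BAT, at a mean of 1.25 CPM at 22 °C and 5.80 CPM at 34 °C, against 222 and 130 CPM in brain. Dapk2 likewise fell in brain and rose in BAT, and the responses differed by -1.86 (SE 0.29, adjusted p = 0.00032 in the same test). Its means were below 10 CPM in both tissues. As 14.1% of all genes differed between brain and BAT at that adjusted p, and only genes called in brain were looked at, neither difference is particular to these genes.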

How the results depend on the processing

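Depth limits genes near 0, since a count of 0 allows up to 0.0477 to 0.0612 CPM. Calls depended on the filter and the libraries. The count of 27 called genes (6 higher, 21 lower) was 90 (28 and 62) with edgeR's filterByExpr, 188 (66 and 122) without a filter and 79 (24 and 55) in the fit shared with BAT, liver and ileum, where 0 immediate early and 0 cholesterol genes had an unadjusted p of at most 0.05 and 3 of the 27 (Dapk2, Exd1 and Slc6a4) were called. DESeq2 called 3 genes higher. With adjusted p under 0.05 as the threshold 0 genes were called. Leaving out a library gave 34 to 65 called genes, 8 to 16 of them higher and 22 to 49 lower, with 0 to 1 at an adjusted p under 0.05, and 16 to 20 of the 27 were called again. The lowest count was without warm 1 and the highest without RT 3 (43 without RT 2, 53 without warm 2, 61 without warm 3). Immediate early genes with an unadjusted p of at most 0.05 and lower numbered 7 to 15 in these fits, and cholesterol genes 5 to 8. The medians of the lists were -0.39 to -0.10 and -0.13 to -0.08. No value changed sign among called genes.

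For the response at 34 °C against that at 10 °C, 132 genes were called, and 396 with the 22 °C library of the cold experiment that stood apart and 226 with filterByExpr. The number at an adjusted p under 0.05, 0 in the main fit, was 1 with library-size scaling, 2 with filterByExpr, 21 with DESeq2 and 0 to 17 without a library. Against BAT it was 3271 with library-size scaling in place of 2120, and against ileum 0 to 2 without a brain library. Why these counts moved was not tested.

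The column numbers were also used as a replicate block. Deviations from the group means correlated at -0.04, 0.24 and 0.25 for the pairs 1 to 3. In the pairs at 0.24 and 0.25 the warm library of the same number was the best match of the RT library. RT 1 correlated best with warm 3, but only at 0.07. Deviations from a mean of so few libraries are tied to each other, so this check cannot decide whether the numbers pair the samples. With the block, 36 genes were called, 8 passed an adjusted p under 0.05 and 16 immediate early genes had an unadjusted p of at most 0.05, and for the response at 34 °C against 10 °C 24 genes passed an adjusted p under 0.05.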
